A study of Mus musculus with 2 samples.

Results

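The genes described here are named for proteins of the mitochondrial ribosome, with an Mrpl symbol (large subunit) or an Mrps symbol (small subunit). All protein-coding genes of GENCODE release M21 on GRCm38 with such a symbol followed by a number were taken, which gave 78 genes (49 Mrpl and 29 Mrps) of 21755 protein-coding genes. The rule reads gene symbols alone and does not check that each protein is part of the ribosome. The assay was in situ Hi-C. Fixed chromatin is cut inside the nucleus, here with DpnII, and ends that lie close together are joined, so that sequencing counts contacts between distant pieces of DNA. Mature olfactory sensory neurons were isolated by FACS. The olfactory epithelium came from adult mice, with sex given as mixed and the strain as not specified. In these mice Ldb1, which encodes a cofactor of LIM-domain transcription factors, was deleted conditionally by OMP-Cre. The Omp promoter is active once olfactory neurons have matured. There was 1 group of 2 biological replicates of 1000000 cells each, fixed in 1% formaldehyde, and no control library was analysed here, so nothing below compares knockout with normal neurons.

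The submitters pooled both replicates and deposited 1 list of 7610 boundaries, each a 5 kb bin with a strength score and a class. A boundary is a stretch that few contacts cross. Since the caller and its settings are not known here, the strength is read only as a rank within this list. In the list 4022 boundaries were strong, all with a strength of at least 0.5002, and 3588 were weak. Since both replicates went into a single list, no value below has a replicate error, the depth behind a boundary is unknown, and the list can check neither the loss of Ldb1 nor the identity of the sorted cells. Shares are given with exact 95% binomial intervals, which reflect counting alone and take genes as independent of each other. No difference between groups of genes was tested.

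Mitochondrial ribosomes translate the few messages that mitochondrial DNA still encodes, all of them for membrane proteins of the respiratory chain and the ATP synthase. Their RNA comes from the mitochondrial genome, whereas every one of their proteins is encoded in the nucleus, made in the cytosol and imported. Many of these proteins descend from those of the bacterial ancestor and others were added later, and the genes lie scattered over the chromosomes. Neurons depend on the respiratory chain, and the genes are expressed in nearly all cell types.

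A larger share of mitochondrial ribosomal protein genes than of all protein-coding genes lay near a boundary. The transcription start site (TSS), taken as the 5′ end of the gene, lay at a boundary, meaning inside a bin or at most 10 kb from one, for 19 of 78 genes (24.4%, 95% interval 15.3 to 35.4). Over all protein-coding genes the same share was 14.3%, which is below the lower end of that interval. In the bin itself lay the TSSs of 5 of 78 genes (6.41%), against 3.86% of all genes, and this share was within its counting error. Within 10 kb of a strong boundary lay 13 of 78 (16.7%, 9.18 to 26.8), against 9.3%, and this interval too included the value of all genes. Within 25 kb there were 31 of 78 (39.7%, 28.8 to 51.5), against 26.5%. Within 50 kb there were 44 of 78 (56.4%, 44.7 to 67.6), against 45.3%, which lies inside the interval.

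Fewer of the genes than of all protein-coding genes lay far from any boundary. In all, 12 of 78 TSSs (15.4%, 8.21 to 25.3) were more than 100 kb from any boundary, against 26.8% of all protein-coding genes. With all genes weighted to the members' local gene density that share was 25.3%, at the upper end of the interval. The median distance to the nearest bin was 37.6 kb (interquartile range 13.5 to 80.5 kb), against 56.6 kb over all genes (23.3 to 105 kb). To the nearest strong boundary the medians were close, at 96.4 kb and 101 kb. The domain between the neighbouring boundaries on either side of the TSS had a median length of 240 kb for the members and 270 kb for all genes. Within the domain, the median distance to the nearer end was 0.199 of its length for the members (95% interval 0.141 to 0.282) and 0.227 for all genes, a value inside that interval.

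**Figure D1:**
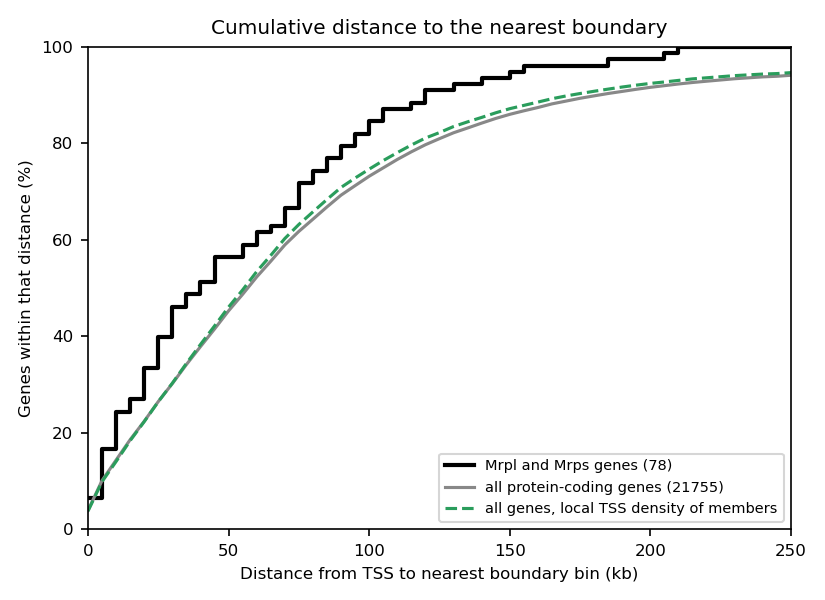
Cumulative share of genes (y axis, %) against the distance from the TSS to the nearest boundary bin (x axis, kb) for the 78 Mrpl and Mrps genes (black), all 21755 protein-coding genes (grey) and all genes weighted to the same local gene density (dashed green). The black line lies above both others beyond the first few kb, with 39.7% of the members and 26.5% of all genes reached at 25 kb.

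The 5 genes whose TSS lay inside a bin were 4 of the large subunit and 1 of the small subunit, and 4 of the 5 boundaries were weak. Mrpl10, whose protein anchors the flexible stalk that recruits translation factors, began in a bin of strength 0.294 at chr11:97040001-97045000, which also held coding exons of Lrrc46. Mrpl2, whose protein lies close to the peptidyl transferase centre, began in a bin of strength 0.410 at chr17:46645001-46650000. Mrpl38, which encodes a mitochondria-specific protein of the central protuberance, began in a bin of strength 0.265 at chr11:116135001-116140000. For Mrpl35 the bin at chr6:71825001-71830000 (strength 0.292) held the 5′ end of the gene but not that of its coding transcripts. Its first protein-coding transcript began 1.19 kb outside the bin. Mrps10, whose protein sits in the head of the small subunit, was the only gene with its start in a strong bin (0.822, chr17:47365001-47370000). The 250 bases before the coding start are shown for Mrpl38 and Mrps10, for which this sequence lies in the bin itself. Capitals mark the core of the sites of ETS transcription factors (CCGGAAG, or CTTCCGG when it lies on the other strand). Of the 5 genes, only these 2 held that core in their promoter, so they do not stand for all 5.
Mrpl38, chr11:116138869-116139118, minus strand: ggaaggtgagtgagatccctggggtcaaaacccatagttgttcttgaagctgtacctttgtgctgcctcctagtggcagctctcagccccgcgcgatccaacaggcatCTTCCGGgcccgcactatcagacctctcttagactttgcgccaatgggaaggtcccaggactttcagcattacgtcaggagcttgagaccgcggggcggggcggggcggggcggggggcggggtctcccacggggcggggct
Mrps10, chr17:47368637-47368886, plus strand: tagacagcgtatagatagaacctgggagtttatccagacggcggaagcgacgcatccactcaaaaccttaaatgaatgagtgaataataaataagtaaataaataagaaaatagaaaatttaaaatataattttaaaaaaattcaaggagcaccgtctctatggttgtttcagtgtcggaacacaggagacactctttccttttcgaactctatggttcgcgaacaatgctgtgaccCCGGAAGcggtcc
Both sequences are from the GRCm38 genome and run 5′ to 3′ on the strand of the gene.

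The genes of the small subunit made up most of those just outside a bin. Of the 14 genes between 0 and 10 kb from a bin, 11 had an Mrps symbol, against 29 of all 78 members. Of their 14 boundaries, 12 were strong. With the bins that held a TSS the strong class made up 13 of 19 (68.4%). This was near the 63.6% of boundaries with any protein-coding TSS within 10 kb. The split between weak boundaries in the bin and strong ones outside it has no value of all genes beside it. It is therefore not read as a trait of these genes. The strongest belonged to Mrps14, whose protein is part of the head of the small subunit. Its TSS lay 5.215 kb from the bin at chr1:160185001-160190000, of strength 2.18, which is the 98.2 percentile of the whole list. That bin overlapped no protein-coding gene, and no other protein-coding TSS lay within 10 kb of it. The next was the boundary of Mrps27 (1.63, chr13:99335001-99340000), 4.79 kb upstream of its TSS and inside Ptcd2. Both Mrps27 and Ptcd2 encode pentatricopeptide repeat proteins of mitochondria.

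Mrps12 encodes the protein at the decoding centre, and its boundary (1.56, chr7:28730001-28735000) lay 6.82 kb downstream, in exon sequence of Fbxo17. For Mrps28 the boundary (1.55, chr3:8915001-8920000) lay 3.92 kb into the first part of its own gene, in an intron. Mrps28 is, at 122 kb, the longest of the 78 genes. Mrps15, which encodes a protein of the body of the small subunit, had a boundary of 1.44 at chr4:126035001-126040000, 6.925 kb upstream in Csf3r, the receptor gene of a granulocyte growth factor. These 5 genes, with Mrps23 and Mrps22, were all the members within 10 kb of a boundary of strength 1 or more, and none has an Mrpl symbol. They made up 7 of 78 (8.97%, 3.68 to 17.6), against 4.03% of all genes, a value inside that interval.

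Mrps23 and Mrps22 encode mitochondria-specific proteins of the small subunit. The bin of Mrps23 (1.36, chr11:88205001-88210000) lay 0.613 kb downstream of the TSS within the gene. The bin of Mrps22 (1.14, chr9:98605001-98610000) lay 3.34 kb upstream, outside any protein-coding gene. Mrps31 lay 6.36 kb from a bin of 0.806 (chr8:22400001-22405000), to which the TSS of Slc25a15, a mitochondrial ornithine carrier gene, was nearer. Weak boundaries in this range belonged to Mrps5 (0.264, 2.78 kb), whose protein lines the entry of the messenger RNA, and to Mrps18b (0.333, 3.61 kb). Mrps30, which has a small-subunit symbol although its protein sits in the large subunit, lay 2.75 kb from a bin of 0.877 (chr13:118390001-118395000).

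Among the promoters next to these strong boundaries, those of Mrps14 and Mrps22 are shown as examples in which the bin lies outside any protein-coding gene and no other protein-coding gene starts within 10 kb of it. The 250 bases before the coding start (GRCm38, 5′ to 3′ on the strand of the gene, ETS cores in capitals) were as follows.
Mrps14, chr1:160194965-160195214, plus strand: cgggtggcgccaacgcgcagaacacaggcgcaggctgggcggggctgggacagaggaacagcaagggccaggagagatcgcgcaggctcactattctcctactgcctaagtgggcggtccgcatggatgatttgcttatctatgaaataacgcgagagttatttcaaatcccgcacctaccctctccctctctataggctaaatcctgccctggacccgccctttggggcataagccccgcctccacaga
Mrps22, chr9:98601661-98601910, minus strand: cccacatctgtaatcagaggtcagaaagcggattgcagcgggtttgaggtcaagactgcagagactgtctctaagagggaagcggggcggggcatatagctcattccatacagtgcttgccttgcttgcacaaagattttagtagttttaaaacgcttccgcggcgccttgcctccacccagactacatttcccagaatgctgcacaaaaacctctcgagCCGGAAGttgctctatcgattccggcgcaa
The sequence of Mrps22 held an ETS core and that of Mrps14 held none.

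Mrpl30, Mrpl20 and Mrpl28 were the only genes of the large subunit by symbol between 0 and 10 kb from a bin. Their proteins all have bacterial counterparts, and their boundaries were strong but close to the lower limit of that class. Mrpl30 lay 0.477 kb from a bin of 0.572 that overlapped a coding exon of its neighbour Mitd1 (chr1:37885001-37890000). Mrpl20 lay 7.12 kb from a bin of 0.5497 (chr4:155810001-155815000). Mrpl28, at 8.50 kb and a strength of 0.556 (chr17:26110001-26115000), was the last gene inside the 10 kb limit. The next genes outside it were Mrpl3 at 13.2 kb, Mrpl45 at 14.3 kb and Mrpl24 at 15.5 kb, all at weak boundaries (0.256, 0.389 and 0.216). Any limit between 8.50 and 13.2 kb would thus have taken the same 19 genes. The share of all protein-coding genes grows with the limit, however, from 14.3% at 10 kb to 18.5% at 15 kb. At 15 kb the members stood at 26.9%. The value of 18.5% lies inside the interval of the 19 genes (15.3 to 35.4), so the gap between both shares depends on the limit.

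**Figure D2:**
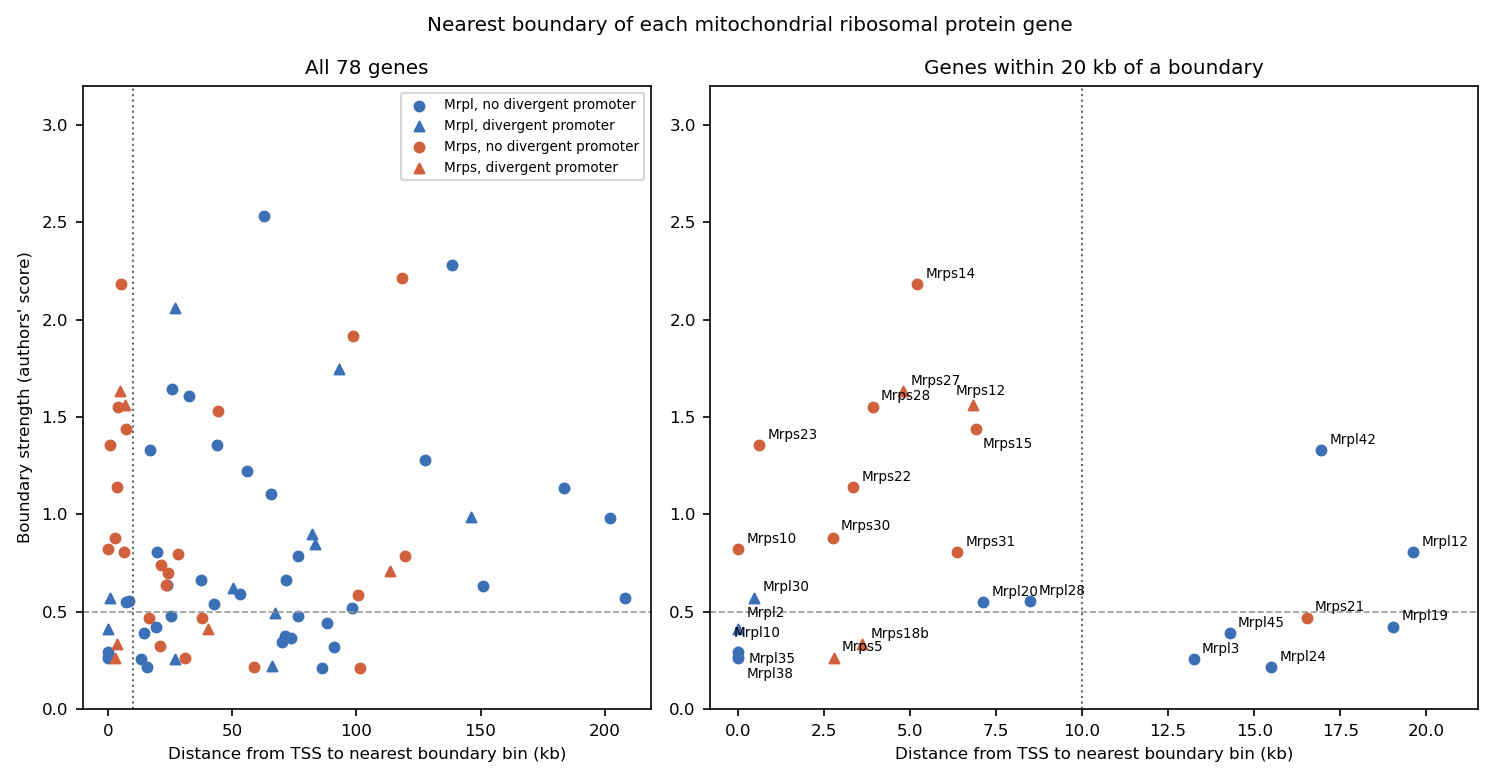
Distance from the TSS to the nearest boundary bin (x axis, kb) against the authors' strength score of that boundary (y axis) for all 78 genes in one panel and for those within 20 kb in the other, with Mrpl genes in blue, Mrps genes in orange and triangles for divergent promoters. The dotted line marks 10 kb and the dashed line the lower limit of the strong class. All points within 10 kb and at a strength of 1 or more are Mrps genes, up to Mrps14 at 2.18, and the Mrpl genes reach 208 kb.

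The 5 genes farthest from any boundary all belonged to the large subunit, which by symbol holds 49 of the 78 genes. Mrpl22 lay 208 kb away, Mrpl23 202 kb, Mrpl36 184 kb, Mrpl17 151 kb and Mrpl57 146 kb. Mrpl17, Mrpl22 and Mrpl23 encode proteins around the exit of the peptide tunnel, where nascent chains leave the ribosome. None of the 7 genes listed for the tunnel (Mrpl17, Mrpl22, Mrpl23, Mrpl24, Mrpl44, Mrpl45 and Mrpl47) lay within 10 kb of a boundary, against 14.3% of all protein-coding genes. Their median distance was 86.0 kb, against 56.6 kb over all genes. With 7 genes, a share of 0 has a 95% interval up to 41.0%, which includes the 14.2% of all genes at the same local density. The list holds Mrpl17, Mrpl22 and Mrpl23, which were named above because they lie far from any boundary. Of the 5 genes listed for the stalk and its base, only Mrpl10 was at a boundary. The Mrps genes spanned a shorter range, and the farthest lay 120 kb away. Beyond 100 kb, however, lay 5 of the 29 Mrps genes and 7 of the 49 Mrpl genes.

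By symbol, 12 of 29 Mrps genes (41.4%, 23.5 to 61.1) and 7 of 49 Mrpl genes (14.3%, 5.94 to 27.2) were at a boundary. The share of the Mrpl genes was that of all protein-coding genes, also 14.3%, and the share of the Mrps genes was above it. The intervals of both subunits overlap between 23.5% and 27.2%. Placing Mrps30 and Mrps18a with the large subunit, where their proteins sit, gave 11 of 27 (40.7%) and 8 of 51 (15.7%). All other genes, Mrps36 included, stayed with the subunit of their symbol, without a check that the protein is part of the ribosome. Strong boundaries showed the wider gap, with 10 of 29 Mrps genes (34.5%, 17.9 to 54.3) and 3 of 49 Mrpl genes (6.12%, 1.28 to 16.9) within 10 kb, against 9.3% of all genes. In the bin itself the order was the other way round, with 1 of 29 Mrps genes (3.45%) and 4 of 49 Mrpl genes (8.16%). The median distance was 21.1 kb for Mrps genes (95% interval 5.215 to 40.1) and 55.7 kb for Mrpl genes (26.9 to 71.7).

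Shares by ancestry lay closer together than shares by subunit. Of 46 genes listed here with a bacterial counterpart, 12 were at a boundary (26.1%, 14.3 to 41.1). Of the 32 others, listed as mitochondria-specific, 7 were (21.9%, 9.28 to 40.0). The list was not checked gene by gene, and some placings are open to question. It puts Mrpl55 and Mrps18c with a counterpart, and Mrps18a and Mrps18b without. Of these, only Mrps18b was at a boundary. Among the Mrps genes both kinds had high shares, with 6 of 16 and 6 of 13. Among the Mrpl genes the shares were 6 of 30 listed with a bacterial counterpart and 1 of 19 listed without. The last of these was Mrpl38.

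**Figure D3:**
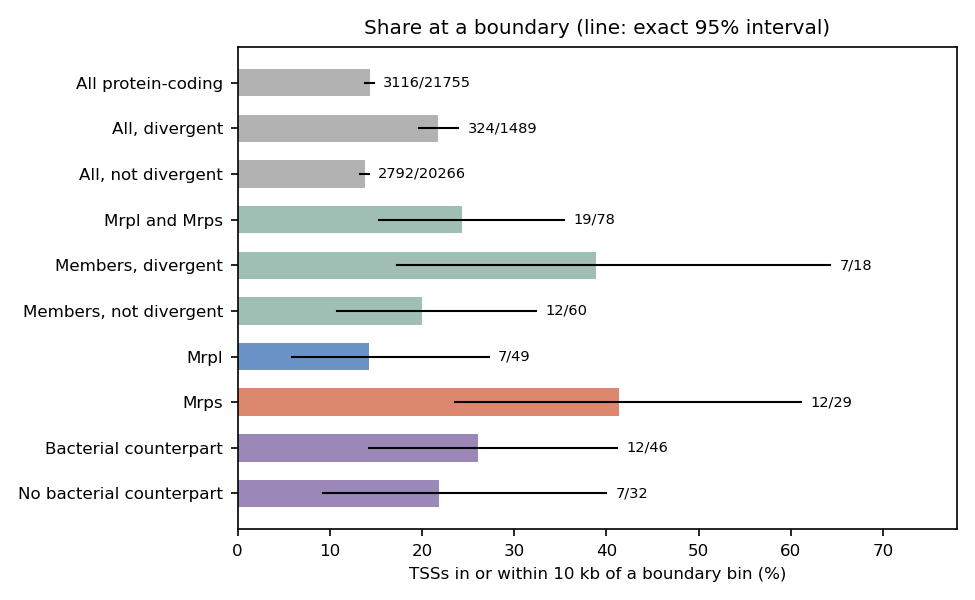
Share of TSSs at a boundary (inside a bin or at most 10 kb away) (%) as bars, for all protein-coding genes (grey) and for groups of mitochondrial ribosomal protein genes (other colours), with exact 95% binomial intervals as lines and counts beside them. The Mrps genes stand at 41.4% and the Mrpl genes at 14.3%, the value of all protein-coding genes.

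Many of these genes share a promoter region with a neighbour that is read in the opposite direction. A divergent promoter was counted where another protein-coding gene began on the opposite strand within 1000 bases upstream. It was found for 18 of 78 genes (23.1%, 14.3 to 34.0), against 6.84% of all protein-coding genes. The gap between both starts was short, with a median of 82 bases (26 to 935), against 128 bases over all such genes. Of the 18 genes, 7 were at a boundary (38.9%, 17.3 to 64.3), against 21.8% of all genes with a divergent promoter. Of the 60 without one, 12 were (20%, 10.8 to 32.3), against 13.8% of all such genes. Both intervals of the members include the share of the corresponding genes. At strong boundaries alone the divergent members stood at 3 of 18 (16.7%), against 15.6% of all genes with a divergent promoter, and within 25 kb at 38.9%, against 34.9%.

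The 7 pairs at a boundary joined a mitochondrial ribosomal protein gene to partners of varied function. Mrps12 was paired with Sars2, the mitochondrial seryl-tRNA synthetase gene, and Mrps27 with Ptcd2, so both genes of these pairs serve mitochondria. Mrpl2 was paired with Klc4, a light chain of the motor protein kinesin, Mrps18b with Ppp1r10, a nuclear targeting subunit of protein phosphatase, and Mrpl30 with Mitd1, which acts in the last step of cell division. Mrps5 was paired with Zfp661, a zinc finger gene, and Mrpl10 with Lrrc46. Strong boundaries belonged to 3 of the 7 (Mrpl30, Mrps27 and Mrps12), and 10 of the 12 genes at a boundary without a divergent partner had a strong one. These shares of the members were 42.9% (9.90 to 81.6) with and 83.3% (51.6 to 97.9) without a divergent partner. Over all genes at a boundary, 71.6% of divergent and 64.2% of other genes had a strong one. Both values lie inside the interval of the corresponding members, and the intervals of the members overlap. The counts are therefore too small to show that the members differ in order from all genes.

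The sequence between both starts is the stretch that a pair shares and is shown for the 7 pairs at a boundary. Each runs 5′ to 3′ on the strand of the mitochondrial ribosomal protein gene (GRCm38), from the base after the partner's start to the base before its own, with ETS cores in capitals.
Mrpl10 and Lrrc46, chr11:97041408-97041559, plus strand: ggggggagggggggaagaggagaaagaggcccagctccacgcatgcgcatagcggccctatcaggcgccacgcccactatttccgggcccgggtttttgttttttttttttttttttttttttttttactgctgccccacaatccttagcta
Mrpl2 and Klc4, chr17:46646023-46646228, plus strand: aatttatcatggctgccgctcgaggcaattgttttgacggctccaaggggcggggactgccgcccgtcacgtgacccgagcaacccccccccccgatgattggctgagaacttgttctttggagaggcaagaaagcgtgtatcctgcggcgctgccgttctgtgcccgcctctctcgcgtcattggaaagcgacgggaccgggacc
Mrpl30 and Mitd1, chr1:37890412-37890476, plus strand: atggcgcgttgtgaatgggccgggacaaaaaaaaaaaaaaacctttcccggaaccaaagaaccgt
Mrps5 and Zfp661, chr2:127587095-127587221, plus strand: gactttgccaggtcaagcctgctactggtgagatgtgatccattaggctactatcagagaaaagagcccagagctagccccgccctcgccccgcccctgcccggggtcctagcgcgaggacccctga
Mrps18b and Ppp1r10, chr17:35916390-35916433, minus strand: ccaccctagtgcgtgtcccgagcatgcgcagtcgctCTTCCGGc
Mrps27 and Ptcd2, chr13:99344706-99344785, plus strand: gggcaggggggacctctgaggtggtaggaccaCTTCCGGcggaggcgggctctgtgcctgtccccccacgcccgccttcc
Mrps12 and Sars2, chr7:28741821-28741991, minus strand: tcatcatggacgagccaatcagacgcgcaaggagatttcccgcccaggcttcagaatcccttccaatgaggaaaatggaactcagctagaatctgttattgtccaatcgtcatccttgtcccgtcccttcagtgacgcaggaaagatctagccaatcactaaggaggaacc
The shortest gap, that of Mrps18b, and that of Mrps27 each held an ETS core on the strand of the partner. The gaps depend on the starts used. From first coding transcripts, that of Mrps18b was 177 bases in place of 45, and that of Mrps12 was 182 in place of 172.

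The remaining 11 divergent pairs lay outside 10 kb. Their partners included Psma2, a proteasome subunit gene, for Mrpl32 at 26.8 kb from a boundary of strength 2.06, and Hira, a histone chaperone gene, for Mrpl40 at 93.1 kb from one of 1.75. Fau, whose product is processed into a cytosolic ribosomal protein, was the partner of Mrpl49 at 67.2 kb. The gap was narrowest for Mrpl54 and Apba3 (26 bases) and widest for Mrpl41 and Pnpla7 (935 bases). With the first coding transcripts as starts, 20 of 78 genes (25.6%) had a divergent promoter, against 7.1% of all genes. Counting long noncoding RNA genes as partners gave 20 of 78 (25.6%), against 10.1% of all genes. Counting starts that overlap head to head by up to 500 bases gave 26 of 78 (33.3%), against 9.61%.

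A single pair of members shared a locus. Mrps11 and Mrpl46, of the small and the large subunit, began 0.412 kb apart by the ends of their gene records. Their first coding transcripts ran away from each other from starts only 30 bases apart. Both lay about 23 kb (23.1 and 23.5 kb) from the same boundary, of strength 0.639. The sequence between both coding starts, is given on the strand of Mrps11.
Mrps11 and Mrpl46, chr7:78783090-78783118, plus strand: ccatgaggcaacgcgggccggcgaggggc

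**Figure D4:**
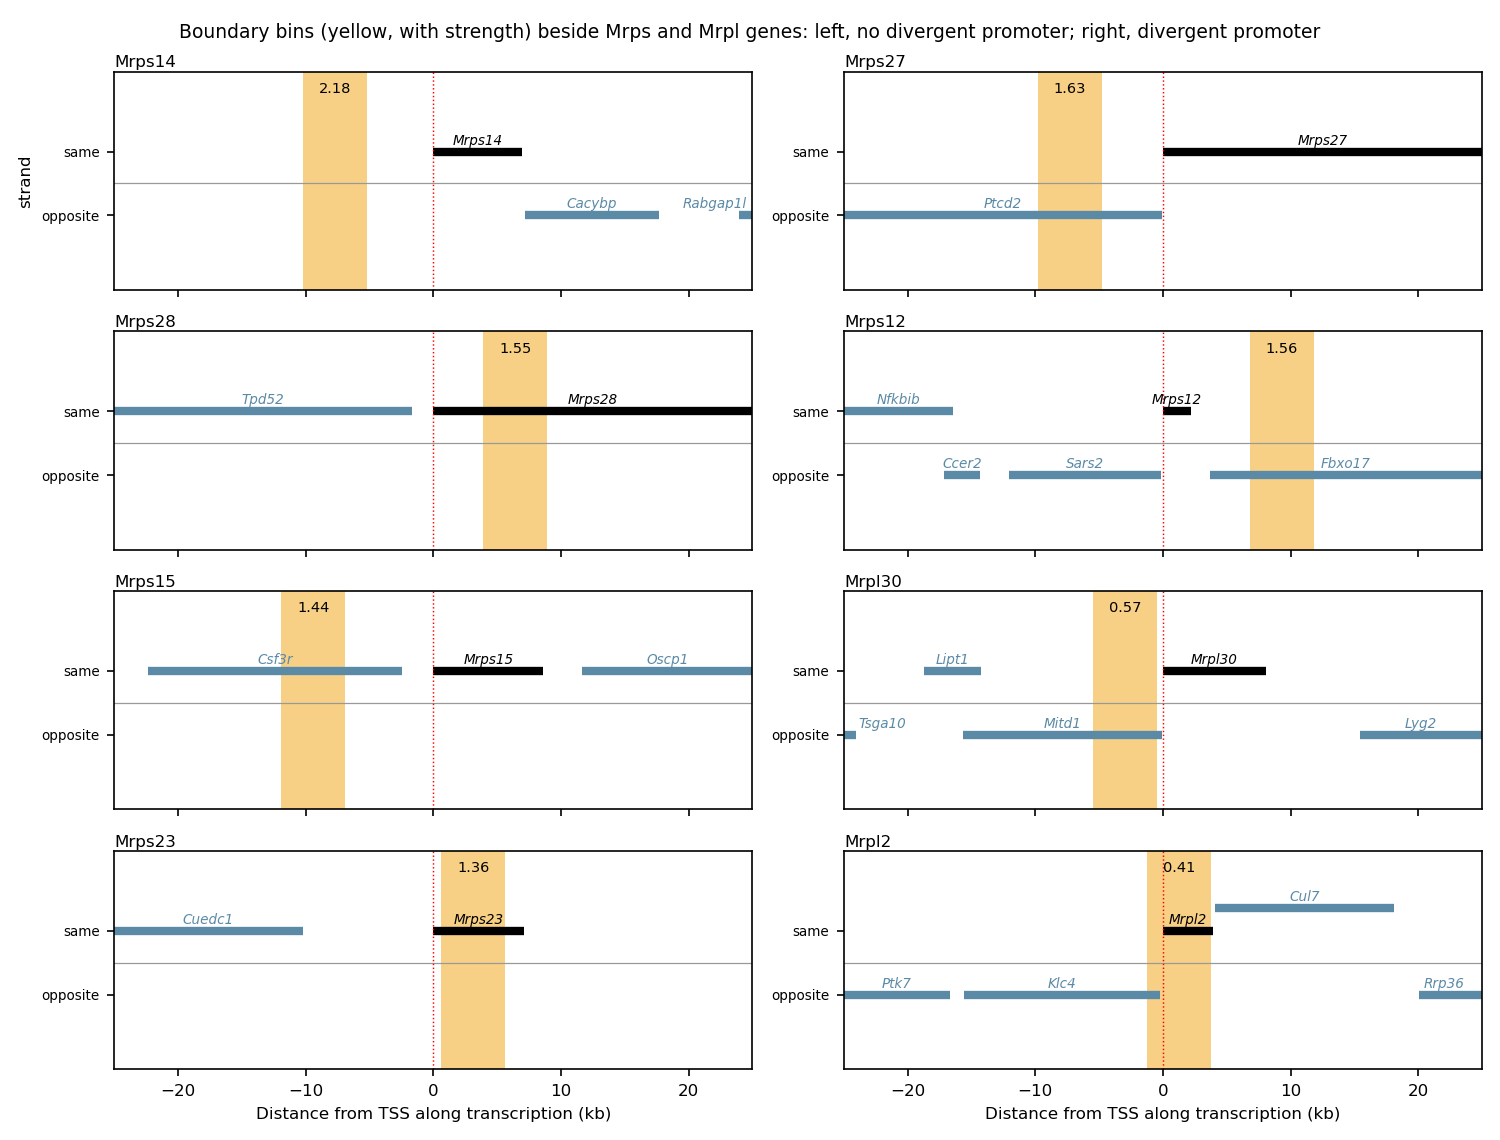
Maps of 8 loci, each drawn by distance from the TSS along the direction of transcription (x axis, kb), with the boundary bin in yellow under its strength and protein-coding genes as bars on the same or the opposite strand (the member in black). The left column has members without a divergent promoter and the right column those with one. The bin of Mrps14 lies in no gene, that of Mrps28 in its own gene and those of Mrps27, Mrps12 and Mrpl30 in a neighbour.

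The members lay in somewhat denser surroundings than protein-coding genes as a whole. Their median number of other protein-coding TSSs within 100 kb was 5, against 3 over all genes. When the shares of all genes were averaged over 9 groups of that number, weighted as the members are spread over them, the share at a boundary was 14.0%. The share of the members was 1.74 times that value (1.09 to 2.52). Weighting on density and divergent promoters together gave 15.3%, and a ratio of 1.59 (1.00 to 2.31). The promoters of the members were also richer in CpG, with a median observed over expected ratio of 0.820 against 0.530. Weighting on density and this ratio gave 17.5%, and a ratio of 1.39 whose interval included 1 (0.877 to 2.02). By subunit, the ratio on density was 1.03 for Mrpl genes and 2.89 for Mrps genes.

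The members at a boundary lay in both sparse and dense surroundings. With 0 to 3 other TSSs within 100 kb, 8 of 29 members (27.6%) were at a boundary, against 15.6% of all genes. With 4 to 7 there were 5 of 30 (16.7%), against 13.5%, and with 8 to 25 there were 6 of 19 (31.6%), against 12.3%. In the sparse and middle groups the interval of the members included the value of all genes, and in the densest group its lower end was 12.6%. Of the 7 members with exactly 1 other TSS in that range, 5 were at a boundary (Mrps22, Mrps23, Mrps27, Mrps28 and Mrps30), against 14.6% of all such genes. The other 2 were Mrpl1 and Mrpl13. This group was singled out after its values were seen, and its neighbours were low. With no other TSS the count was 0 of 1, and with 2 others it was 1 of 10 (10%), against 16.6% of all such genes.

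**Figure D5:**
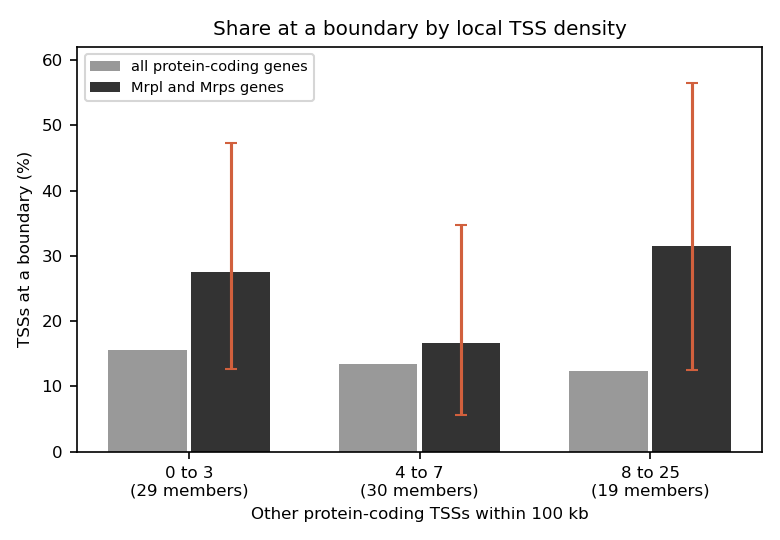
Share of TSSs at a boundary (inside a bin or at most 10 kb away) (y axis, %) by the number of other protein-coding TSSs within 100 kb (x axis), for all protein-coding genes (grey) and the 78 Mrpl and Mrps genes (black), with exact 95% binomial intervals for the members. The members stand at 27.6%, 16.7% and 31.6%, and all genes fall from 15.6% to 12.3%.

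The 19 genes at a boundary lay at 19 different boundaries. The median strength of these 19 was 0.806 (95% interval 0.333 to 1.44), against 0.666 for the 2369 boundaries with any protein-coding TSS within 10 kb and 0.538 for the whole list. The strong class made up 13 of 19 (68.4%, 43.4 to 87.4), against 63.6% and 52.9%, and both values lay inside the interval. The order of the medians depended on the window. In the bin alone the median was 0.294 (5 boundaries), against 0.659 with any protein-coding TSS, and within 25 kb it was 0.605 (30 boundaries), against 0.670. A strength of at least 1 was reached by 7 of 19 (36.8%, 16.3 to 61.6), against 27.6% and 22.5%. Outside the bin, the boundary lay upstream of the gene for 9 of 14 members (64.3%, 35.1 to 87.2), against 55.7% of all genes in that range. The bin overlapped the gene itself for 8 of 19, only other protein-coding genes for 7, and no protein-coding gene for 4 (Mrps14, Mrps22, Mrps30 and Mrps31).

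A member was the gene nearest to the bin for 13 of the 19 boundaries (68.4%), against 76.0% of all genes at a boundary. It was the only protein-coding TSS within 10 kb of the bin for 6 of 19 (31.6%, 12.6 to 56.6), against 56.9% of all genes at a boundary. These 6 were Mrps10, Mrps14, Mrps15, Mrps22, Mrps23 and Mrps28, all of the small subunit and all at strong boundaries. For the other 13 boundaries another protein-coding gene began within the same range, and the boundary cannot be assigned to either gene from these data.

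CTCF, the zinc finger protein at which loop extrusion by cohesin halts, was represented by its core consensus sequence on either strand. At most 10 kb from the bin, or inside it, a match was found at 6 of 19 member boundaries (31.6%, 12.6 to 56.6), against 27.4% of boundaries with any protein-coding TSS and 24.4% of the whole list. Of the 6 boundaries, 5 were strong, and that of Mrps18b was weak. The 30 bases around each match are shown because the consensus is not symmetric and so gives each site a direction. Capitals mark the consensus, read on the strand named (GRCm38).
Mrps10, chr17:47371632-47371661, plus strand: gcctcctttCCACTAGGGGGCgctcactta
Mrps23, chr11:88216344-88216373, plus strand: gctgcagcaCCACTAGGTGGCgctgcgctc
Mrps18b, chr17:35921384-35921413, plus strand: gccccatttCCAGCAGAGGGCactagacat
Mrps28, chr3:8913938-8913967, minus strand: gtcagccttCCAGCAGGTGGCaggcatagg
Mrps12, chr7:28726834-28726863, minus strand: tacaggtttCCAGTAGGGGGCgctggagga
Mrpl28, chr17:26120324-26120353, plus strand: gaccgtagcCCAGCAGAGGGCagcagcgct
The match at Mrps18b lay inside the bin. The 5 others lay outside it, and all 5 pointed away from the bin, as did 68.6% of 615 such matches at boundaries with any protein-coding TSS. A match is a sequence, not bound CTCF.

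The promoters of the genes were described over the 250 bases before and 50 bases after each TSS. The ETS core (CCGGAAG) occurred on either strand in 27 of 78 (34.6%, 24.2 to 46.2), against 10.9% of all protein-coding promoters of that length. The YY1 core (AAGATGGCG) occurred in 7 of 78 (8.97%, 3.68 to 17.6), against 1.7%. The core of NRF1, a regulator of many nuclear genes of mitochondria (GCGCA followed directly by TGCGC, the same on both strands), occurred in 1 of 78, that of Mrpl9 (1.28%), against 1.23%. Only this exact sequence was counted, so the share says nothing about near matches. The TATA sequence TATAAA occurred in 5 of 78 (6.41%, 2.11 to 14.3), against 12.7%, a value inside that interval. From first coding transcripts it occurred in 7 of 78 (8.97%, 3.68 to 17.6), against 12.6%. No match of one of these 4 motifs overlapped a match of another in the members' promoters.

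The ETS core was about as frequent in members at a boundary as in those away from one. It occurred in 7 of 19 (36.8%, 16.3 to 61.6) at a boundary and in 20 of 59 (33.9%, 22.1 to 47.4) elsewhere. The 7 were Mrpl38, Mrps10, Mrps12, Mrps18b, Mrps22, Mrps23 and Mrps27. Over all genes the share was 16.4% at a boundary and 9.95% elsewhere. Among members the core occurred in 33.3% of promoters with a divergent partner and in 35% of those without. Over all genes these shares were 27.3% and 9.66%. The YY1 core occurred in 2 of 19 promoters at a boundary, those of Mrps10 and Mrps27.

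Other genes of mitochondrial translation and respiration were set beside the members and the 14.3% of all protein-coding genes. Of 5 mitochondrial ribosomal proteins with other symbols, 2 had their TSS at a boundary, Chchd1 (strength 0.952) and Gadd45gip1 (0.778). Of 22 assembly factors of the mitochondrial ribosome, 4 did (18.2%, 5.19 to 40.3), with the highest strengths at Tfb1m, which modifies ribosomal RNA (2.52), and Mrm1, an RNA methyltransferase gene (2.24). Of 17 mitochondrial aminoacyl-tRNA synthetase genes, 3 did (17.6%, 3.80 to 43.4), among them Lars2 (0.587) and Sars2, whose boundary is that of Mrps12. Of 12 genes of mitochondrial translation factors, 1 did, Taco1 (0.331). The shares of the assembly factors and synthetases were thus near that of all genes, and the interval of each includes it.

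The larger lists had shares as high as the members or higher. Of 84 genes of cytosolic ribosomal proteins, 30 were at a boundary (35.7%, 25.6 to 46.9), which was 2.57 times the share of all genes at the same local density. Their median distance was 28.1 kb, and the strongest boundaries belonged to Rps23 (2.95) and Rps24 (1.73). Of 77 nuclear genes of the respiratory chain and ATP synthase, 20 were at a boundary (26.0%, 16.6 to 37.2), 1.85 times the share at the same density, with the highest strengths at Atp5o (2.22) and Uqcrc2 (2.17). Divergent promoters were about as common among these respiratory genes (24.7%) as among the members (23.1%), and less common among the cytosolic ribosomal protein genes (10.7%). The intervals of the members and of both these lists overlap, and the members' share lay below both.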

How the data were processed

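In situ Hi-C was measured in 2 biological replicates of 1 group. Per the labels' design text, the contacts of both were combined and boundaries called from an insulation score on GRCm38. Not given in the sources used here were the caller, its version, window and mask. The authors deposited 1 list of 5 kb bins with a strength score and a class. The score was used only to describe or split boundaries within this list, and its depth is unknown.

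Distances ran from each gene's 5′ end (GENCODE M21) to the nearest base of a bin (0 inside), on 20 chromosomes. Density was the number of other protein-coding TSSs within 100 kb. Its deciles gave 9 groups because of ties. Divergent partners began within 1000 bases upstream. Motifs were searched in the GRCm38 sequence, from 250 bases before to 50 after the TSS. Python 3.11.15, numpy 2.4.6, pandas 2.3.3, scipy 1.17.1, matplotlib 3.10.9 and pyfaidx 0.9.0.4 were used, and the scripts were tested on simulated data. The alternatives were other windows, strengths, start definitions, radii and weightings.

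The members and gene lists were chosen with earlier results of these data known. Named genes were all members at a boundary, the 5 farthest, the 3 just outside 10 kb, members sharing a locus, divergent partners at a boundary, and the 2 members of each other list with the strongest boundary. Genes named for a protein's role, a motif, a density group or a divergent pair away from boundaries were added after their values were seen.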

Additional observations from a re-analysis of the deposited data

How the results depend on the processing

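No paired analysis was possible because the data hold 1 group. Neither replicate could be left out, since both went into a single list. Of 34 alternative settings 26 moved the value by less than its counting error, as did 52 of 54 that were added after seeing the data. Most of those 54 left out a single chromosome, which drops at most 11 members and can move a value little. The 52 also include the ratio weighted on density and CpG, 1.39, whose own interval included 1 (0.877 to 2.02). The share of members at a boundary moved to 6.41% in the bin only, 39.7% within 25 kb, 56.4% within 50 kb and 8.97% at a strength of at least 1. With the strong class alone, the median distance moved to 96.4 kb and the share at a boundary among members with a divergent promoter to 16.7% (15.6% of all such genes). With the bin alone, the median strength moved to 0.294, below the 0.659 of boundaries with any protein-coding TSS, the share with a CTCF consensus to 5.26%, below their 6.80%, and the share of Mrps genes to 3.45%. Within 25 kb the share of Mrpl genes moved to 28.6%, and the median strength, 0.605, was again below that with any protein-coding TSS (0.670). The windows hold different numbers of genes by construction, and all genes moved with them, to 3.86%, 26.5%, 45.3% and 4.03%. The ratio to all genes at the same density was 1.72 in the bin, 1.50 within 25 kb, 1.22 within 50 kb, 1.79 for strong boundaries and 2.22 for a strength of at least 1. Counting any annotated start of a gene gave 22 of 78 (28.2%), against 18.7% of all genes, and a ratio of 1.60. It added Mrps9, Mrps18a and Mrps21, so Mrps genes reached 15 of 29 (51.7%) and Mrpl genes stayed at 7 of 49. The start of the first coding transcript gave 19 of 78 and a ratio of 1.73. Leaving out each of the 17 chromosomes in turn gave shares of 21.4% to 26.0% and ratios of 1.52 to 1.85, lowest without chromosome 17, which holds 4 of the 19 genes.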
